A study of Mus musculus with 2 samples.

Results

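Il13, Il4, Il5 and Csf2 encode cytokines of type 2 immune responses, and they were chosen by name as 4 of the 31053 genes counted in epidermal lymphocytes of mouse ear skin. Both libraries came from WT female FVB/NJ mice, 8 weeks old, whose ears had received an antibody into the dermis 7 d earlier. In the isotype group this was a control antibody, and in the anti-Skint1 group it was an antibody against Skint1, a keratinocyte protein that selects dendritic epidermal T cells (DETCs) in the fetal thymus. Live cells with surface CD45 and without EpCAM and MHC class II were sorted from the epidermis and sequenced with 10x 3' v3 chemistry, which tags each mRNA molecule with a unique molecular identifier (UMI). The study puts n, which it counts in mice, at 1 per group, and the labels give no number. There was 1 library per treatment, so treatment and library cannot be told apart, and no test between groups was made.

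IL-13 and IL-4 share a receptor chain and drive mucus, IgE, itch and barrier responses of epithelia, whereas IL-5 supports the survival of eosinophils and GM-CSF, the product of Csf2, supports myeloid cells and dendritic cells. In skin these cytokines are known from group 2 innate lymphoid cells (ILCs), T helper 2 cells, mast cells and basophils. DETCs, which fill the mouse epidermis and carry a γδ T cell receptor of nearly fixed sequence, are known to make IL-13 when keratinocytes show them stress ligands.

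A barcode counted as a cell if it held 500 to 2500 genes and no more than 12% of its UMIs were mitochondrial, which gave 4242 in the isotype and 5961 in the anti-Skint1 library, and 5 barcodes were used by cells of both. At least 1 UMI was found for Il13 in 1503 and 2104 of these cells, for Csf2 in 217 and 306, for Il5 in 14 and 24, and for Il4 in 10 and 11. DETCs were cells with at least 3 UMIs of Trdc and 3 of the CD3 genes and none of Trac, Cd4, Cd8a and Cd8b1, and there were 3544 and 4945 of them, with the isotype library first here and below. Cells with a UMI of Trac and none of Trdv4 were taken as αβ T cells (197 and 213), and cells with at least 3 UMIs of Il7r, Rora and Gata3, at most 2 of CD3 and none of Trdv4 as ILC-like cells (82 and 139). The αβ T and ILC rules shared 9 and 14 cells. With keratinocyte-like cells, 3 and 17 in number, set apart as well, 426 and 670 cells fell in no class. UMIs of a gene were summed over a class and library and given per 1000000 UMIs of that class (CPM). Values in parentheses are 95% intervals, from exact Poisson limits of a level, exact conditional binomial limits of a log2 ratio and Clopper-Pearson limits of a share, and they cover counting error only. Where a count was 0, the limit given is 3 counts of the total, and it limits cells with a UMI and not cells that express the gene.

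The class labels were checked against marker genes, some of which the rules had used. All 8 DETC markers were found in the DETC class, summing to 24580.4 and 24073.8 CPM. The list holds Trdc and the CD3 genes, which the rule asks for, so their part was fixed in advance. Trdv4, which the DETC rule had not used, was found in 3133 and 4146 of its cells. ILC-like cells carried Ltb, the most abundant of 10 ILC markers, and Il18r1 and Icos, which the rule had not used, at 306 and 172 CPM in the isotype and 226 and 167 CPM in the anti-Skint1 library. Klrg1, a marker of group 2 ILCs, was at 0 in both libraries, and Il1rl1, which encodes the IL-33 receptor, had 0 and 3 UMIs. The 10 ILC markers summed to 3633 and 3183 CPM. Il7r, Rora and Gata3 of the rule are among them, so this sum does not check the label. With Klrg1 and Il1rl1 at or near 0, the name ILC-like stands for the rule and no more.

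Other cell types entered the ILC-like class more in the anti-Skint1 library. The 5 keratinocyte markers summed to 483 and 3852 CPM there, which is more than the ILC markers in the anti-Skint1 library, with Krt14 the most abundant, and 5 Langerhans and myeloid markers, led by Cd74, to 1042 and 1613 CPM. Among the 10 genes highest over DETCs, looked at after the values were known, were Cd74 and H2-Aa in the isotype library and Cd207, Krt14, H2-Aa, Krt5 and Cd74 in the anti-Skint1 library, and none of the ILC markers. Cells with at least 20 UMIs of 4 keratins or at least 10 of Cd207, H2-Aa and Lyz2 were therefore also removed. This setting, chosen after seeing the data, kept 80 and 128 cells with keratinocyte markers at 16.2 and 36.9 CPM and ILC markers at 3724 and 3580.4 CPM, and the 10 highest genes then held no gene of the marker lists but Il7r, which the rule had used, in the anti-Skint1 library. Outside the lists, and named after the values were seen, Il1b of myeloid cells was among them in the isotype and Flg2 of keratinocytes in the anti-Skint1 library. Of 10 mast cell and basophil markers only Kit (32 and 73 UMIs) and Hdc (0 and 2 UMIs) were found in ILC-like cells, and all 4 eosinophil markers were at 0. Which cell carried the Kit UMIs was not tested. Of 5 NK markers, all were at 0 in the isotype library, and in the anti-Skint1 library Klrb1c had 3 UMIs and Ncr1 1 UMI.

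Free RNA gave little of the signal. Barcodes with 1 to 100 UMIs held Il13 at 125 and 150.2 CPM, and from the keratin UMIs of each class, without cells of at least 20 such UMIs, free RNA was estimated at 1.79% and 1.77% of DETC UMIs, 2.27% and 1.89% in αβ T cells and 1.70% and 2.71% in ILC-like cells. That left out 0 and 2 DETCs, no αβ T cell and 1 and 9 ILC-like cells, to which the estimate does not apply. In the rest it would add at most 4.07 CPM of Il13 and 0.687 CPM of Csf2 to the 3 classes, 4.16 and 0.703 CPM to ILC-like cells without keratin and myeloid cells, and 7.21 and 1.75 CPM to cells in no class. Keratinocyte-like cells, counted as a further background, had no UMI of any of the 4 cytokines. There were 0 of 3 such cells in the isotype library, too few to set a limit, and 0 of 17 in the anti-Skint1 library, which allows a share of up to 17.6%, at median depths of 5481 and 6892 UMIs. DETCs had median depths of 4027.5 and 3577 UMIs, αβ T cells of 3766 and 3581 and ILC-like cells of 4570.0 and 4334.

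Il13 (ENSMUSG00000020383) was the most abundant of the 4 cytokines in DETCs. Its level in DETCs was 197 CPM (189.7 to 204) in the isotype library and 203 CPM (197 to 209.6) in the anti-Skint1 library, on 2885 and 3798 UMIs. The log2 ratio of anti-Skint1 over isotype was 0.05 (-0.03 to 0.12), so a difference between the libraries was not detectable in DETCs. A UMI of Il13 was found in 36.5% and 35.9% of DETCs. With every cell thinned at random to 2000 UMIs, which left out 134 and 202 DETCs with fewer, the shares were 25.1% (23.6 to 26.6) and 25.5% (24.3 to 26.8). Carriage was broad and not owed to a few cells, as the 10 DETCs with most Il13 held 4.37% and 3.19% of the UMIs and the highest cell had 15 and 14. After thinning, 558 and 753 DETCs had 1 UMI of Il13, 164 and 251 had 2, 76 and 117 had 3, and 57 and 90 had at least 4.

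In αβ T cells Il13 was at 94.9 CPM (74.8 to 119) in the isotype and 160.2 CPM (134 to 189.7) in the anti-Skint1 library. These levels lay below those of DETCs, with log2 ratios of αβ T cells over DETCs of -1.05 (-1.40 to -0.72) and -0.34 (-0.60 to -0.09). A UMI was found in 14.2% and 23.0% of the cells, and after thinning, without 7 and 17 cells, in 8.42% (4.89 to 13.3) and 18.4% (13.2 to 24.5). Thus fewer αβ T cells than DETCs carried Il13, beyond counting error in the isotype library, while a positive cell held 2.71 and 2.73 UMIs on average. The anti-Skint1 level was the higher, with a log2 ratio of 0.76 (0.34 to 1.18). Without the 10 highest cells of each library it was 1.34, and it fell under 0.5, to 0.45, once the upper limit on genes was lifted. Without the cells that also met the ILC rule, a choice made after seeing the data, the levels were 92.0 CPM and 141 CPM and the ratio 0.61 (0.16 to 1.07). Cells with at least 3 UMIs of Trdc were 18 of 197 and 44 of 213. Without them, also a later choice, the ratio was 0.63 (0.14 to 1.13), and in them 0.44 (-0.44 to 1.41).

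ILC-like cells had Il13 at 165 CPM (126 to 210.5) in the isotype library and stood at 343 CPM (299 to 390.4) in the anti-Skint1 library, on 63 and 226 UMIs. The log2 ratio of anti-Skint1 over isotype was 1.06 (0.65 to 1.49), and without cells rich in keratin or myeloid transcripts it was 1.22 (0.82 to 1.65), on levels of 169.7 CPM and 397 CPM. The level was thus higher, whereas shares of carriers did not differ beyond counting error. Unthinned shares were 45.1% and 42.4%, and thinned shares, without 5 and 3 cells, were 23.4% (14.5 to 34.4) and 30.9% (23.2 to 39.4), which overlap. The highest cell had 4 UMIs in the isotype and 18 in the anti-Skint1 library, and the 10 highest held 44.4% and 51.8% of the UMIs. Without these 10 cells in each library the ratio was 0.73, still past 0.5, but 10 cells are a larger part of the smaller isotype class.

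Called here means a log2 ratio of at least 0.5 in size. Among the members at 50 CPM or more over both libraries, Il13 was called higher in 2 of 3 classes. In αβ T cells it was 1 of 2 such members, the other being Csf2, where 3.05% of 2588 genes were called higher and 5.56% lower. In ILC-like cells both of 2 members were called higher, where 7.84% of 2499 genes were called higher and 11.2% lower. In DETCs Il13 was the only member at that level and was not called in either direction, where 0.0701% of 2852 genes were called higher and 0.491% lower. The share of genes called was larger in the smaller classes, and the median gene lay at -0.03 in DETCs, -0.04 in αβ T cells and -0.05 in ILC-like cells. Fos, an early response gene, was at 1327 and 2067 CPM in αβ T cells and at 726 and 1125 CPM in ILC-like cells, against 3766 and 3699 CPM in DETCs, and its part in the ratios of Il13 was not tested.

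The order of the classes by Il13 level thus differed between the libraries. In the isotype library DETCs and ILC-like cells did not differ beyond counting error, with a log2 ratio of ILC-like cells over DETCs of -0.26 (-0.64 to 0.10), and αβ T cells lay below both. In the anti-Skint1 library ILC-like cells lay highest, at 0.76 (0.56 to 0.95) over DETCs and 1.10 (0.78 to 1.42) over αβ T cells. With the cells that met both rules left out of each class, the last ratio was 1.26 (0.91 to 1.61). The median gene lay at -0.20 and -0.26 in ILC-like cells over DETCs, and relative to it the ratios over DETCs were -0.06 and 1.02. The order at the top depended on the cell filter. With no upper limit on genes, which added 52 and 81 ILC-like cells, the ratios over DETCs were -2.09 and -1.03, and at 5% mitochondrial UMIs they were -0.82 and 0.53. Without the 10 highest cells per class they were -0.82 and -0.14, but 10 cells are a larger part of the ILC-like class than of DETCs, so this step lowers the ratio by its design.

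DETCs were so many that most Il13 UMIs lay in them. They held 85.9% (84.7 to 87.1) of all Il13 UMIs in cells of the isotype library and 80.8% (79.7 to 82.0) in the anti-Skint1 library. ILC-like cells held 1.88% (1.44 to 2.39) and 4.81% (4.22 to 5.46), and αβ T cells 2.26% (1.79 to 2.82) and 2.85% (2.40 to 3.37). For Csf2 the DETC share was smaller, at 61.0% (56.8 to 65.0) and 43.4% (39.9 to 47.0), while ILC-like cells went from 4.04% (2.58 to 6.004) to 28.0% (24.8 to 31.3). Of the 15 and 33 Il5 UMIs, ILC-like cells held 53.3% (26.6 to 78.7) and 54.5% (36.4 to 71.9), and DETCs 0.

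**Figure D1:**
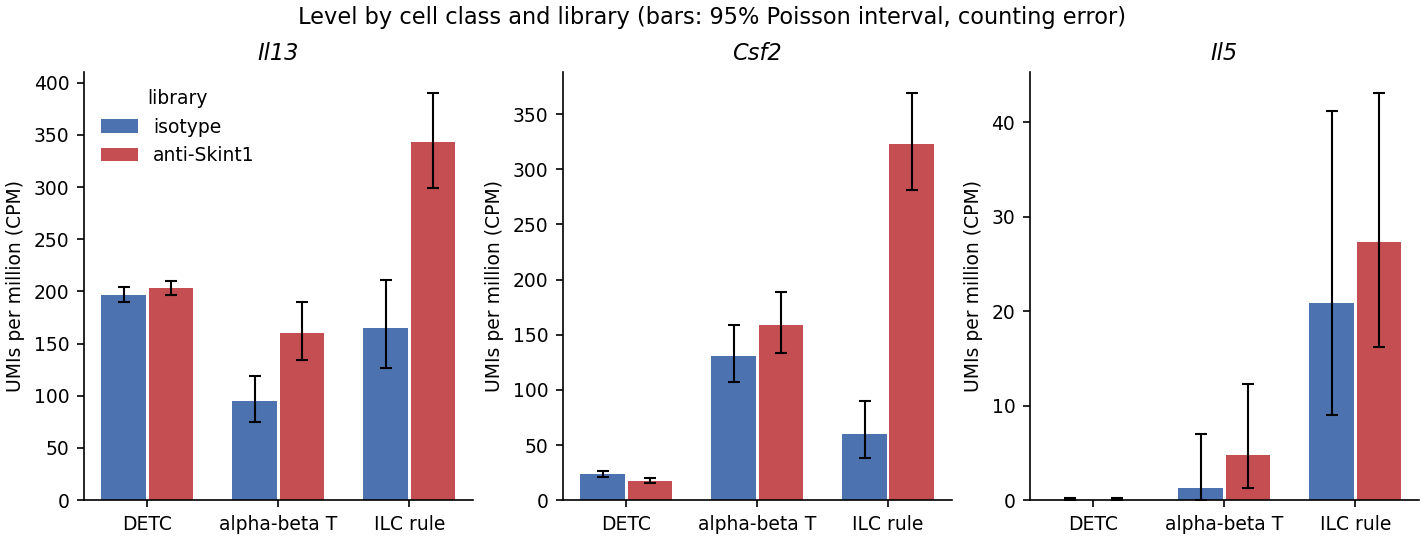
Levels of Il13, Csf2 and Il5 in CPM, by class and library, with exact Poisson 95% intervals as error bars and 1 library per bar. Il13 stood at 197 and 203 CPM in DETCs and at 343 CPM in ILC-like cells of the anti-Skint1 library, where Csf2 stood at 323 CPM, and Il5 had no UMI in DETCs.

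Il13 was also followed within the classes. DETCs without a UMI of Trdv4, the δ variable gene of the DETC receptor, had Il13 at 226 CPM and 187 CPM, and those with it at 194 CPM and 206 CPM. The log2 ratio between these was 0.22 (0.05 to 0.39) in the isotype and -0.14 (-0.27 to -0.01) in the anti-Skint1 library, so its direction turned. Barcodes over 2500 genes that otherwise met the DETC rule had less Il13 per UMI, at 117 CPM and 121 CPM, with ratios over DETCs of -0.75 (-0.91 to -0.59) and -0.75 (-0.91 to -0.58). Among αβ T cells, Il13 was at 31.4 CPM and 84.0 CPM in those with Cd4 and no Foxp3, on 5 and 15 UMIs, and at 36.2 CPM and 99.9 CPM in those with Cd8 and no Foxp3, on 4 and 7 UMIs. The 110 and 140 cells with none of Cd4, Cd8 and Foxp3 held most of its UMIs, at 126 CPM and 203 CPM. Those with Foxp3 held 9 UMIs in 1 of 17 cells of the isotype library, 133 CPM, and had it in 0 of 12 cells of the anti-Skint1 library, which allows up to 84.4 CPM. The few αβ T cells that also had 3 or more UMIs of Trdc, 18 and 44 in number, had 186 CPM and 253 CPM, against 85.4 CPM and 132 CPM in the rest, with ratios of 1.13 (0.17 to 1.98) and 0.94 (0.40 to 1.46). Their Trdc, which encodes the constant part of the δ chain, marks a part of that class whose Il13 was nearer to that of DETCs.

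Il5 (ENSMUSG00000036117) was not found in DETCs within the gene limit. It had a UMI in 0 of 3544 DETCs of the isotype library, which allows a share of up to 0.0847%, and in 0 of 4945 of the anti-Skint1 library, which allows up to 0.0607%. Free-RNA barcodes held 1 and 2 UMIs of it. In ILC-like cells it was at 20.9 CPM (9.02 to 41.2), 8 UMIs in 7 cells, and at 27.3 CPM (16.2 to 43.1), 18 UMIs in 13 cells. These UMIs, taken without counting error, were set against the floor of 3 UMIs in DETCs of each library. On this count the level was at least 102-fold higher in isotype and at least 170.2-fold higher in anti-Skint1 ILC-like cells. The log2 ratios of these folds are 6.67 and 7.41. With the counting error of both classes taken in, the lower limits of the log2 ratio were smaller, at 6.03 and 6.96. Barcodes over 2500 genes that otherwise met the DETC rule held 1 and 2 UMIs of Il5, in 1 barcode of each library, so the absence holds within the gene limit only. There Il13 and Il5 parted in DETCs, which carried Il13 widely and had no UMI of Il5. The log2 ratio of anti-Skint1 over isotype in ILC-like cells was 0.39 (-0.89 to 1.80), so a difference between libraries was not detectable. The αβ T cells had 1 UMI in the isotype library and 4 UMIs in 3 cells in the anti-Skint1 library, and the log2 ratio of ILC-like over αβ T cells was 4.06 (1.17 to 9.54) and 2.51 (0.91 to 4.54).

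The 7 and 13 Il5-positive ILC-like cells had Il7r, Rora or Gata3 because the rule asks for them, so these genes do not tell what the cells were. Il13 was found in 5 of 7 and 5 of 13, where 45.1% and 42.4% of all ILC-like cells had it, and Csf2 in 1 and 4. None had a UMI of Trac or Krt14, while Trdc was found in 2 of 7 and 2 of 13. Of all ILC-like cells, 13.4% and 10.1% had Trdc. Another 6 and 11 Il5 UMIs lay in cells outside the 3 classes.

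Il4 (ENSMUSG00000000869) was close to absent from every class. DETCs had 9 UMIs in 9 cells of the isotype library, 0.614 CPM (0.281 to 1.17), and 7 UMIs in 7 cells of the anti-Skint1 library, 0.374 CPM (0.150 to 0.771). Their log2 ratio was -0.71 (-2.37 to 0.88), within counting error. The αβ T cells had 2 UMIs in 1 cell of the isotype library and 0 of 213 cells in the anti-Skint1 library, which allows a share of up to 1.41%. For ILC-like cells it was 0 of 82, which allows up to 3.66%, and 0 of 139, up to 2.16%. The floors in ILC-like cells, 7.83 and 4.55 CPM, lie above the DETC levels, so a difference from DETCs was not detectable at this depth. Of the Il4-positive DETCs, 4 of 9 and 1 of 7 also had Il13.

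Csf2 (ENSMUSG00000018916) was carried by fewer cells than Il13. A DETC with Csf2 held 2.18 and 1.53 UMIs of it on average, and a DETC with Il13 2.23 and 2.14 of that gene. In DETCs it was at 23.7 CPM (21.2 to 26.3) and 17.7 CPM (15.8 to 19.7), on 347 and 331 UMIs, with a log2 ratio of anti-Skint1 over isotype of -0.42 (-0.64 to -0.20). Shares of carriers did not differ beyond counting error. The shares were 4.49% and 4.37% unthinned and 2.43% (1.94 to 3.01) and 2.83% (2.37 to 3.34) thinned. The highest DETC had 24 UMIs in the isotype and 9 in the anti-Skint1 library, and 10 cells held 39.5% and 19.3% of the UMIs. Without those 10 cells in each library the ratio was -0.0060, so the difference rested on them. In DETCs without Trdv4 Csf2 was at 49.2 CPM and 19.8 CPM, and in those with it at 20.8 CPM and 17.3 CPM, with ratios between libraries of -1.31 (-1.84 to -0.79) without and -0.27 (-0.51 to -0.02) with Trdv4. Of the 72 isotype UMIs without Trdv4, 24 lay in 1 cell. Leaving out the highest cell of each library, a step taken after seeing the data, gave -0.99 (-1.60 to -0.38) there, so the interval overlaps that of cells with Trdv4.

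In ILC-like cells Csf2 was at 60.1 CPM (38.1 to 90.1) in the isotype library, 23 UMIs in 7 cells, and at 323 CPM (281 to 369) in the anti-Skint1 library, 213 UMIs in 27 cells. The log2 ratio of anti-Skint1 over isotype was 2.43 (1.80 to 3.12), and 2.59 (1.97 to 3.28) without cells rich in keratin or myeloid transcripts. The highest cell held 11 of the UMIs in the isotype and 89 in the anti-Skint1 library. Without that cell in each library, a step added with the data in view, the ratio was 2.57. This cut took 47.8% of the isotype and 41.8% of the anti-Skint1 UMIs, so it does not show what the highest anti-Skint1 cell added. The share of thinned cells with a UMI was 3.90% (0.811 to 10.97) and 12.5% (7.45 to 19.3), and these intervals overlap. With at least 5 UMIs of Il7r, Rora and Gata3 asked of each ILC-like cell, the ratio was 1.40. Without that stricter rule, 7 cells held all UMIs of the isotype library and 10 cells 86.9% of those of the anti-Skint1 library.

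The αβ T cells had Csf2 at 131 CPM (107 to 159) and 159 CPM (133 to 188). Their ratio between libraries was 0.28 (-0.10 to 0.66), within counting error, and at 5% mitochondrial UMIs it was -1.03. The cells that also met the ILC rule held 0 of 105 and 39 of 133 of these UMIs, 30 of them in 1 cell. Without them the levels were 138 CPM (113 to 167) and 121 CPM (98.0 to 148) and the ratio -0.19 (-0.60 to 0.23), so its sign rested on them. Here too few cells held the UMIs, with 10.2% and 10.3% of cells positive (5.26% and 8.67% thinned) and 10 cells holding 88.6% and 90.2% of them. In αβ T cells with Cd4 and no Foxp3 the level was 144 CPM and 297 CPM, in 2 and 10 positive cells, and 27 of the 53 anti-Skint1 UMIs lay in 1 cell. Those with Cd8 and no Foxp3 had 6 UMIs in the isotype library and 0 of 17 cells in the anti-Skint1 library, which allows a share of up to 17.6%. In cells with none of Cd4, Cd8 and Foxp3 the level was 161 CPM and 143 CPM, with a ratio of -0.17 (-0.65 to 0.30).

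In both libraries DETCs had the lowest Csf2, and the order of the classes above them differed. The log2 ratio of αβ T cells over DETCs was 2.47 (2.14 to 2.79) and 3.17 (2.87 to 3.46). ILC-like cells over DETCs gave 1.34 (0.67 to 1.95) and 4.19 (3.93 to 4.44), and over αβ T cells -1.13 (-1.85 to -0.46) and 1.02 (0.70 to 1.35), or -1.04 (-1.76 to -0.38) and 1.26 (0.89 to 1.64) with the cells that met both rules left out of each class. The isotype ratio over DETCs had 23 UMIs on its ILC-like side. It was -0.10 with no upper limit on genes and 0.43 without the highest ILC-like cell, a cut on 1 side that can only lower it. In the anti-Skint1 library it was 1.70 without the 10 highest cells of each class, a step that also takes more from the smaller class, and above 0 under all 14 alternatives run. Il13, in contrast, was lower in αβ T cells than in DETCs in both libraries. By summed level Csf2 and Il13 thus ordered these classes in opposite ways. For Csf2 few αβ T cells carried the level, with 10 of them holding 88.6% and 90.2% of its UMIs. The ratio over DETCs without those cells was not computed. Thinned shares with Csf2 in αβ T cells were 5.26% (2.55 to 9.47) and 8.67% (5.13 to 13.5). They overlapped those of DETCs in the isotype library only.

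Cells with both Il13 and Csf2 were counted after thinning, beside the number that the product of the single shares gives. In DETCs 23 and 43 cells had both, against products of 20.8 and 34.2. In αβ T cells 1 and 5 had both, against 0.842 and 3.12. ILC-like cells of the anti-Skint1 library stood apart, with both genes in 14 of their 17 Csf2-positive cells, against a product of 5.25. Csf2 was found in 33.3% of the Il13-positive and 3.19% of the Il13-negative ILC-like cells there. In the isotype library only 1 ILC-like cell had both, against a product of 0.701. Il13 and Il5 met in 1 thinned ILC-like cell of the isotype and 0 of the anti-Skint1 library, against products of 0.701 and 1.85.

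The 4 genes lie on chromosome 11 in positions of GENCODE vM21 on GRCm38, Il4 from 53602982 to 53618669, Il13 from 53631324 to 53634702, Il5 from 53720794 to 53725106 and Csf2 from 54247271 to 54249667. Il4 and Il13 are 12.7 kb apart, Il5 is 86.1 kb beyond Il13, and Csf2 is 613 kb beyond Il13. Rad50, which encodes a DNA repair protein and houses a control region of the type 2 locus, lies between Il13 and Il5. It was at 47.8 and 47.8 CPM in DETCs, 86.2 and 70.5 CPM in αβ T cells and 65.3 and 71.3 CPM in ILC-like cells. Irf1, an interferon response factor next to Il5, was at 78.0 and 74.6 CPM in DETCs, 124 and 102 CPM in αβ T cells and 65.3 and 66.7 CPM in ILC-like cells. Rad50 and Irf1 were thus found in every class, whereas Il5, which lies between them, and Il4, which lies beyond Il13, were not.

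P4ha2, an enzyme of collagen synthesis between Il5 and Csf2, was mostly a DETC transcript among the 3 classes, at 38.7 and 35.1 CPM there. It had 3 and 1 UMIs in αβ T cells and 2 and 0 in ILC-like cells. Il3, the neighbour of Csf2 and a growth factor of mast cells and basophils, had 6 UMIs in DETCs of the anti-Skint1 library and 0 in all other classes of both libraries. Kif3a, a kinesin gene next to Il4, was at 28.0 and 23.8 CPM in DETCs. Across 797 kb and 14 genes, DETCs thus carried Il13 while Il4 and Il5 on either side of it were at or near 0.

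The promoters are printed because Il13 and Csf2 met in the same ILC-like cells of the anti-Skint1 library, while Il4 and Il5 of the same locus were at or near 0 in DETCs. RefSeq sequences of GRCm38.p6 were matched for all 4 members, and the windows are the 250 bases before each start, written 5′ to 3′ on the strand of the gene. The minus strand holds Il13 at chr11:53634703-53634952, Il4 at chr11:53618666-53618915 and Csf2 at chr11:54249900-54250149, and the plus strand Il5 at chr11:53720544-53720793. The RefSeq start of Csf2 lies 232 bases before its GENCODE start and that of Il4 4 bases after it, so the bases next to the GENCODE start of Csf2 are not covered. Capitals mark matches to GATA, the core of the site of Gata3, on either strand, and to TGANTCA, the AP-1 site, of which there were none.
Il13: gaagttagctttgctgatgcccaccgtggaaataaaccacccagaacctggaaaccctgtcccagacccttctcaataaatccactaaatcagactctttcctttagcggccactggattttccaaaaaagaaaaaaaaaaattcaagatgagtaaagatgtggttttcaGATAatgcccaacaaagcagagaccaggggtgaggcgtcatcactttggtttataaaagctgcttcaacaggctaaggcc
Il4: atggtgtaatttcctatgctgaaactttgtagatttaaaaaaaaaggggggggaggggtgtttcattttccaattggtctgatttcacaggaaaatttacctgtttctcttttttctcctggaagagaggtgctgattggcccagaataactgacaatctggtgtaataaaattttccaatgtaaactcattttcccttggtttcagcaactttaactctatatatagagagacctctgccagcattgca
Il5: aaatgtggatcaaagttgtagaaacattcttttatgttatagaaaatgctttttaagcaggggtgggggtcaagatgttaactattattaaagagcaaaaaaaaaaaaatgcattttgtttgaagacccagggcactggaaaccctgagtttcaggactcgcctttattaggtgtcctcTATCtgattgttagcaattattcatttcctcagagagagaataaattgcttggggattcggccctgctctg
Csf2: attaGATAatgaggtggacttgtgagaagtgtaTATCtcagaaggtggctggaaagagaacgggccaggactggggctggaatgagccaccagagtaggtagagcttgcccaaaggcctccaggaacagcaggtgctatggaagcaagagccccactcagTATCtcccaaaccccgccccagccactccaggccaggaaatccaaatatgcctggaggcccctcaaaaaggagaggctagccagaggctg

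GATA was found 1 time before Il13, 77 bases from its start, 0 times before Il4, 1 time before Il5 and 3 times before Csf2, and 53.6% of 32851 such windows hold it. TGANTCA was found in none of the members' windows and is held by 6.75% of all windows. GGAAA, the core of the NFAT site, was found 4 times before Il13, 5 times before Il4, 2 times before Il5 and 2 times before Csf2, and 55.6% of all windows hold it. A second RefSeq start of Il4 had GATA 3 times and GGAAA 0 times. A match is a description, not a site, and no match says only that these letters are not in this window.

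Partner genes were sought by setting DETCs with a UMI of Il13 after thinning, 855 and 1211 cells, against those with none, 2555 and 3532 cells. Median depth before thinning was 4040.0 and 3555 UMIs in positive and 4086 and 3655.5 UMIs in negative cells, and median mitochondrial shares were 5.36% and 5.56% in positive and 5.44% and 5.58% in negative cells. Of 2767 genes with at least 50 CPM in both libraries, 77 were called higher in both (2.78%) and 2 lower in both (0.0723%). Each library on its own gave 112 and 117 higher and 34 and 15 lower. The median gene had log2 ratios of -0.06 and -0.07. Thus the set of partners was nearly all in the direction of more RNA with Il13.

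The ratios of the highest genes were modest in size. Cxcl2, a chemokine that draws neutrophils, was at 189.6 CPM in positive and 92.0 CPM in negative cells of the isotype library and stood at 190.5 CPM in positive and 98.5 CPM in negative cells of the anti-Skint1 library, with log2 ratios of 1.04 (0.84 to 1.25) and 0.95 (0.78 to 1.12). For Tnfaip2, a gene induced by TNF, the levels were 142 CPM in positive and 74.95 CPM in negative cells and then 149.6 CPM in positive and 73.5 CPM in negative cells, with ratios of 0.92 (0.69 to 1.16) and 1.03 (0.83 to 1.22). Nfkbia, which encodes the inhibitor IκBα and is itself an NF-κB target, was at 1837 CPM in positive and 1033 CPM in negative cells and at 1836 CPM in positive and 1016 CPM in negative cells, with ratios of 0.83 (0.77 to 0.89) and 0.85 (0.80 to 0.91). Vegfa, the growth factor of blood vessels, had ratios of 0.91 and 0.87, and Hilpda, a lipid droplet gene of the hypoxia response, had 0.87 and 1.02. Traf4, an adaptor of the TNF receptor pathway, had 0.86 and 0.87.

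The other 6 of the 12 highest were nearer to the call. They were Hist1h2bc at 0.83 and 0.82, Rrad at 0.95 and 0.81, Dusp5, a phosphatase of ERK, at 0.81 and 0.79, Ifrd1 at 0.75 and 0.84, Cebpb, a factor of inflammatory genes, at 0.75 and 0.86, and Sgk1, a kinase of salt and stress responses, at 0.82 and 0.75. All 12 had intervals above 0 in both libraries. Areg and Bhlhe40, named below with their lists, were among the 77 as well.

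At the other end, ratios were small. Pitpna, a phosphatidylinositol transfer protein, was at 89.0 CPM in positive and 133 CPM in negative cells of the isotype and 83.5 CPM in positive and 127 CPM in negative cells of the anti-Skint1 library, with log2 ratios of -0.58 (-0.85 to -0.33) and -0.61 (-0.83 to -0.39). Sdhb, a subunit of succinate dehydrogenase, had ratios of -0.70 (-1.10 to -0.32) and -0.56 (-0.89 to -0.25), and these were the 2 genes called lower. The other 10 of the 12 lowest did not pass in both libraries. They included Trgv2, a γ variable gene not used by the DETC receptor, at -0.46 and -0.47, the zinc finger gene Cxxc5 at -0.52 and -0.48, the mitochondrial gene Tmem126a at -0.62 and -0.43, the adenylate cyclase gene Adcy7 at -0.56 and -0.39 and the helicase gene Dhx9 at -0.55 and -0.39. Ilkap had -0.50 and -0.45, Caprin1 -0.45 and -0.58, Erp29 -0.51 and -0.41, Tomm5 -0.41 and -0.56 and Mark3 -0.37 and -0.45.

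**Figure D2:**
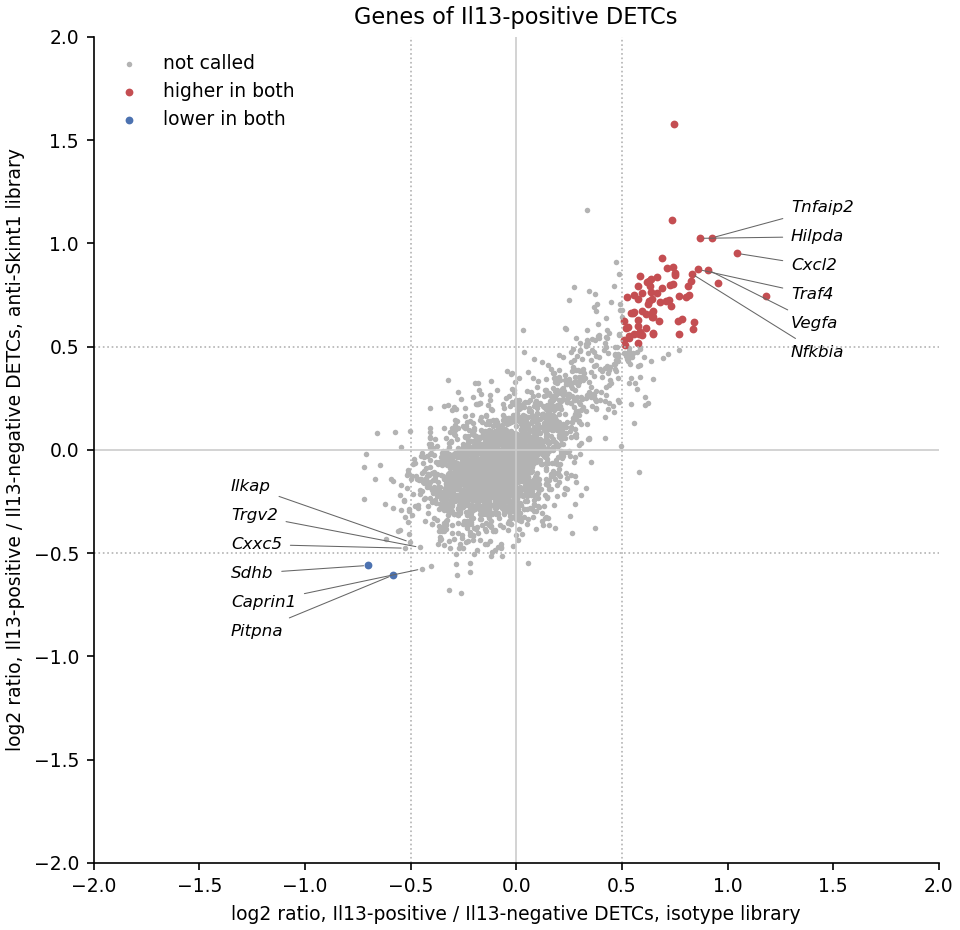
Log2 ratio of Il13-positive over Il13-negative DETCs for each of 2767 genes, isotype library on the horizontal and anti-Skint1 library on the vertical axis, with dotted lines at 0.5 in size and the 6 highest and 6 lowest genes named. The 77 genes beyond 0.5 in both libraries are at the upper right and the 2 beyond it below 0 are at the lower left.

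The partners were also followed over the number of Il13 UMIs, in thinned DETCs with 0, 1, 2, 3 and at least 4 of them (2555, 558, 164, 76 and 57 cells of the isotype and 3532, 753, 251, 117 and 90 of the anti-Skint1 library). Nfkbia went up at each step, over 1033, 1711, 1927, 1993 and 2579 CPM in the isotype and 1016, 1641, 2039.8, 2094 and 2533 CPM in the anti-Skint1 library. Cxcl2 was at 92.0, 183, 179.9, 197 and 272 CPM in the isotype and 98.5, 133, 235, 312 and 389 CPM in the anti-Skint1 library. Pitpna was at 133, 94.1, 85.4, 78.9 and 61.4 CPM and 127, 89.0, 83.7, 59.8 and 66.7 CPM. The step from 0 to 1 UMI was the largest for Nfkbia in both libraries, and Cxcl2 in the anti-Skint1 library went on rising with the UMIs.

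The lists of genes were described by their counts and medians. Of 20 AP-1 and immediate early genes, which are induced within minutes of receptor signals, 17 were measured and 8 called higher, against 2.78% of all genes, with medians of 0.52 and 0.72. The link of Il13 with such genes was among the earlier results of these data and is given here as a description. Fos was at 5092 CPM in positive and 3415 CPM in negative cells of the isotype library, and its ratios were 0.58 (0.54 to 0.61) and 0.79 (0.76 to 0.82). The others called were Fosb at 0.54 and 0.66, Fosl2 at 0.64 and 0.64, Ier2 at 0.63 and 0.72, Ier3 at 0.52 and 0.74, Dusp1 at 0.64 and 0.76, Zfp36 at 0.71 and 0.72 and Nr4a1 at 0.63 and 0.82. The smallest were Ier5 at 0.44 and 0.34 and Jund at 0.33 and 0.50, so every part of the list lay above the median gene.

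Of 21 type 2 factors and cofactors, 9 were measured and 1 was called higher, with medians of -0.14 and -0.02. This was Bhlhe40, a repressor that favours cytokine production in T cells, at 0.62 (0.31 to 0.92) and 0.81 (0.55 to 1.07). Gata3, the factor that directs type 2 cytokine loci, was at 0.61 (0.29 to 0.92) and 0.22 (-0.05 to 0.48), past 0.5 in the isotype library alone. The smallest was Tox in the isotype library, at -0.34 and -0.07, and Ets1 in the anti-Skint1 library, at -0.14 and -0.15. Of 16 receptors for inducing cytokines only 3 were measured and 0 called, Crlf2 at 0.02 and -0.33, Il2rb at -0.04 and 0.13 and Il2rg at -0.08 and -0.06. The receptors for IL-33 and IL-25, Il1rl1 and Il17rb, were nearly at 0, with 1 UMI of Il1rl1 in each library and 1 and 0 UMIs of Il17rb over all thinned DETCs. DETCs thus carried Il13 with next to no transcript of these alarmin receptors.

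Of 22 other cytokines and growth factors, 6 were measured and 1 was called higher, with medians of 0.41 and 0.47. This was Areg, an EGF receptor ligand of epithelial repair, at 0.74 (0.65 to 0.83) and 1.11 (1.03 to 1.19). Xcl1 had 0.33 and 1.16, Tnf 0.58 and 0.40, Il2 0.33 and 0.53, Cxcl10 0.48 and 0.24 and Tgfb1 0.18 and 0.27. Of 18 genes of T cell receptor signalling and costimulation, 14 were measured and 0 called, with medians of -0.04 and -0.07. In the isotype library its ends were Tnfrsf9 at 0.61 and 0.26 and Lck at -0.30 and -0.09. In the anti-Skint1 library they were Cd69, an early activation marker, at 0.49 and 0.56 and Cd44 at -0.01 and -0.15. All 8 heat shock genes were measured and 0 called, with medians of 0.02 and 0.17 and Dnajb1 highest at 0.37 and 0.69. Of 6 proliferation genes only Pcna was measured, at 0.08 and 0.06, and none was called. All 7 galectin, S100 and Ahr genes were measured and 0 called, with medians of -0.06 and -0.17. Of the 13 other genes of the locus only Irf1 was measured, at 0.28 and 0.54. Csf2, under the minimum of 50 CPM and so not called, had 0.54 (0.03 to 1.03) and 0.53 (0.04 to 1.01).

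Because Fos moved with Il13, DETCs were split by their Fos UMIs after thinning, into 0, 1 to 2, 3 to 5, 6 to 10 and over 10. The bins held 698, 543, 509, 688 and 972 cells of the isotype and 958, 843, 745, 825 and 1372 of the anti-Skint1 library. Il13 was at 50.9, 124, 226, 278 and 297 CPM over them in the isotype library and stood at 57.4, 119, 231, 247 and 362 CPM in the anti-Skint1 library. It was thus present in DETCs with no Fos UMI and higher in each further bin. The share of cells with Il13 went from 9.03% to 34.5% and from 8.35% to 39.9%. Csf2 did not climb in order, at 12.9, 17.5, 14.7, 32.0 and 30.9 CPM and 8.87, 12.5, 24.8, 17.0 and 23.0 CPM.

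**Figure D3:**
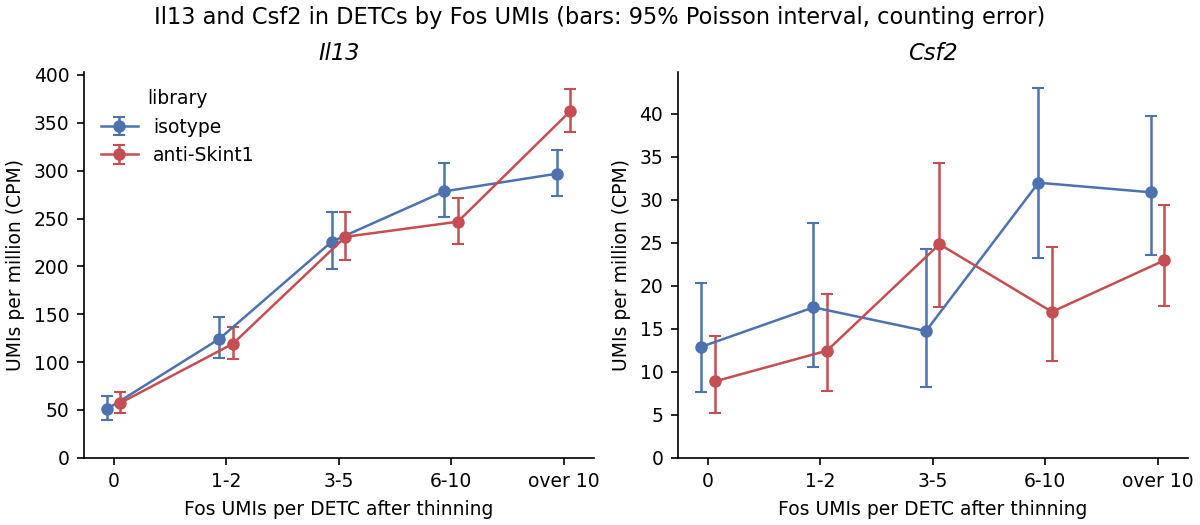
Il13 and Csf2 in CPM in thinned DETCs by bins of Fos UMIs, for each library, with exact Poisson 95% intervals as error bars. Il13 rose from 50.9 to 297 CPM in the isotype and from 57.4 to 362 CPM in the anti-Skint1 library.

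With Il13-negative DETCs weighted to the Fos bins of the positive ones, a setting chosen after seeing the data, 1 gene in place of 77 was called higher and 0 in place of 2 lower. All 12 highest genes kept ratios above 0 in both libraries but none passed 0.5 in both. Cxcl2 was then at 0.71 and 0.46, Nfkbia at 0.49 and 0.41, Areg at 0.27 and 0.50, Bhlhe40 at 0.32 and 0.44 and Fos itself at 0.02 and 0.06. The 12 lowest genes stayed below 0, with Pitpna at -0.46 and -0.39 and Sdhb at -0.62 and -0.48. The 1 gene called was Gzmc, a granzyme named after its values were seen, at 0.80 and 1.39. At matched Fos the number of partners was thus far smaller, and the ratios of the 12 highest were smaller in both libraries.

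Csf2-positive DETCs were few, 83 and 134 after thinning. Of 2768 genes, 16 were called higher in both libraries (0.578%) and 44 lower (1.59%). With so few positive cells the single libraries gave 153 and 84 higher and 352 and 229 lower. Of the 77 genes higher with Il13, 2 were also higher with Csf2, Gadd45b and Sgk1, which is 2.60% of the 77, against 0.578% of all genes, and 12.5% of the 16, against 2.78% of all genes, and no gene was lower with both. The genes of this paragraph were named after their values were seen. Gadd45g, a stress gene, had log2 ratios of 1.16 (0.72 to 1.56) and 0.79 (0.43 to 1.14), and Hsph1, a heat shock protein, had 0.77 (0.21 to 1.28) and 0.74 (0.15 to 1.28). Il2, the T cell growth factor, had 0.55 (-0.30 to 1.29) and 1.86 (1.42 to 2.27), so its excess was beyond counting error in the anti-Skint1 library. Xcl1, a chemokine for dendritic cells, had 0.40 (0.03 to 0.74) and 3.40 (3.17 to 3.62), at 795 CPM in positive and 75.5 CPM in negative cells of the anti-Skint1 library, and it was not called because the isotype ratio lay under 0.5. Fos had 0.10 and 0.17 and Areg 0.03 and -0.01, and of the 17 measured AP-1 and immediate early genes 0 were called. Whether the lists differ beyond the few Csf2-positive cells was not tested.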

How the data were processed

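The authors made the deposited matrices with Cell Ranger 3.0.2 on mm10 (GRCm38), and each deposited value is the raw UMI count of a gene in a barcode, with no cell filter. Sums, shares and ratios had no pseudocount and used numpy 2.4.6, pandas 2.3.3, scipy 1.17.1 and matplotlib 3.10.9 under Python 3.11.15. The libraries held 27272211 and 32450957 UMIs. The partner method was tested on simulated summed counts, where it found 200 of 200 changed genes and called 1 unchanged gene. The simulation held no variation between cells and no split on a detected gene. It thus does not show how the split behaves in real cells. The members and lists were chosen with earlier results of these data known.

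Genes named are the 4 members, the ends of each list, and the 12 highest and 12 lowest of all genes at 50 CPM or more, ranked by the Il13 partner log2 ratio nearer to 0 of the 2 libraries. Genes outside this rule were chosen after their values were seen. 1 result of the marker lists is not reported here. No doublet caller was run, and an alternative left out the 5% of cells with most UMIs. Other alternatives changed the gene and mitochondrial limits, the class rules, the thinning, the 10 highest cells, the scaling, free RNA, the CPM minimum and the call.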

Additional observations from a re-analysis of the deposited data

Results flagged for a closer look

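Csf2 went opposite ways in different classes, with a log2 ratio of anti-Skint1 over isotype of -0.42 in DETCs and 2.43 in ILC-like cells, and the difference was not tested. Without the 10 highest cells of each library the DETC ratio was -0.0060.

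Type 2 cytokine UMIs were also found outside the classes, above the limit that a count of 0 allows. In cells that met the limits and fell in no class, Il13 was at 182 CPM in the isotype and 214 CPM in the anti-Skint1 library, Csf2 at 50.2 and 46.9 CPM, and Il5 at 3.20 and 4.16 CPM, while Il4 was at 1.51 CPM in the anti-Skint1 library. In barcodes over 2500 genes, Il13 was at 95.3 and 80.3 CPM and Csf2 at 27.2 and 12.1 CPM, while Il4 was at 0.74 CPM in the isotype library.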

How the results depend on the processing

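Of 368 recomputed values, 256 stayed within the 95% interval or within 1.5 times the count, 109 moved beyond it and 3, whose interval had not held 0, changed sign. The ratio of Il13 between libraries in ILC-like cells held under all 11 alternatives run, from 0.73 to 1.22. The ratios and partner counts that moved follow, while the 32 shares and 39 levels that moved are not listed. The cause was not tested. With at most 5% mitochondrial UMIs, which left 16 and 20 ILC-like cells, the anti-Skint1 over isotype log2 ratio of Il13 was -0.16 in DETCs and 1.54 in αβ T cells, that of Csf2 was -0.73 and -1.03, and Il13 in ILC-like cells over DETCs was -0.82 in the isotype and 0.53 in the anti-Skint1 library. With no upper gene limit, ILC-like over DETC ratios of Il13 were -2.09 and -1.03, and of Csf2 -0.10 and 2.21. The signs that changed here were those of Il13 in the anti-Skint1 and Csf2 in the isotype library. With at least 5 UMIs of the ILC genes, Csf2 was 1.40 between libraries and 3.20 over DETCs in the anti-Skint1 library. Without the 10 highest cells, Il13 was 1.34 between libraries in αβ T cells, Csf2 in DETCs was -0.0060, Il13 over DETCs was -0.82 in the isotype and, with its sign changed, -0.14 in the anti-Skint1 library, and Csf2 there was 1.70. Csf2 between libraries and in the isotype library over DETCs had no such ratio, as its 23 UMIs lay in fewer than 10 ILC-like cells. Without the 5% of cells with most UMIs, Csf2 in ILC-like cells was 3.24 between libraries and 0.63 over isotype DETCs. Relative to the median gene, anti-Skint1 ratios over DETCs were 1.02 for Il13 and 4.45 for Csf2. Of settings chosen after seeing the data, leaving out keratin and myeloid cells gave Il13 0.97 over anti-Skint1 DETCs, leaving out the highest ILC-like cell gave Csf2 0.43 and 3.42 over DETCs, and DETCs without Trdv4 gave -0.27 for Il13 and -1.31 for Csf2 between libraries and 0.29 for Csf2 in isotype ILC-like cells over them, while DETCs without Trdv4 and without the highest of them gave -0.24 and -0.99 between libraries, and αβ T cells outside the ILC rule gave Csf2 -0.19. Ratios between libraries whose interval had held 0, those of Il13 in DETCs and Csf2 in αβ T cells, thus also fell on both sides of 0. Genes called higher and lower with Il13 were 135 and 29 with at least 2 Il13 UMIs, 125 and 23 at 20 CPM, 0 and 0 at a log2 ratio of 1, and 1 and 0 at matched Fos, while those called lower were 0 without thinning, 1 at 100 CPM and 11 at 5% mitochondrial UMIs. Few ILC-like cells limit all their ratios, and no paired analysis was possible because there was 1 library per group.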

Other observations

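Cxcl2, the gene that ranked highest with Il13 in DETCs, was also followed by class, a choice made after its values were seen. It was at 124 and 123 CPM in DETCs, 40.0 and 261 CPM in αβ T cells and 222 and 408 CPM in ILC-like cells of the isotype and anti-Skint1 libraries. Areg was at 593 and 557 CPM in DETCs, 226 and 326 CPM in αβ T cells and 229.8 and 325 CPM in ILC-like cells.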
